A study of Mus musculus with 6 samples.

Results

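The oxygen-sensing circuit of the cell was followed through 10 genes, taken from the deposited table by their gene names: the hypoxia-inducible factor (HIF) subunits Hif1a and Epas1, the prolyl hydroxylases Egln1, Egln2 and Egln3, the asparaginyl hydroxylase Hif1an, the ubiquitin ligase subunit Vhl, and the known HIF targets Kdm3a, Ndrg1 and Bnip3. All 10 were found, each in a single row, among 54532 genes. RNA came from 6 samples of wild-type 3T3 cells, which derive from mouse embryo fibroblasts and are labelled as adipocytes. Of these, 3 received baicalin, a flavone glucuronide from Scutellaria roots, at 200 µM, and 3 received DMSO. The sources used here do not give the subline, the way the cells were turned into adipocytes, the treatment time, the oxygen level or whether replicates were grown separately. The p-values therefore rest on a spread among samples that may be technical only.

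HIF is a transcription factor made of an oxygen-regulated alpha subunit (HIF-1 alpha, encoded by Hif1a, or HIF-2 alpha, encoded by Epas1) and the stable partner ARNT. When oxygen is present, prolyl hydroxylases of the EGLN family mark the alpha subunit for the von Hippel-Lindau (VHL) ligase, which sends it to the proteasome, and FIH, the product of Hif1an, keeps it from binding its coactivators. Both hydroxylations act on the protein, so transcript levels of Hif1a do not report HIF activity; Egln1 and Egln3 are themselves HIF targets and close a feedback loop. In fat tissue the pathway is known for its part in the response to the poor oxygen supply of growing fat.

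Libraries held 17598666, 18326874 and 17924970 counts with baicalin, and 17711950, 16730594 and 17490650 counts with DMSO. A gene without reads is then limited to at most 0.179 CPM (counts scaled to library size), for counting error only. That limit uses library size alone, whereas the CPM values below are also scaled with TMM factors. Of 13728 genes tested, 33.6% were called higher and 34.1% lower in baicalin (edgeR's quasi-likelihood test, Benjamini-Hochberg adjusted p under 0.05), 67.7% in all, and 49.7% of the called genes were higher. With library size alone as the scaling, all genes together had a median log2 fold change of -0.13 and 37.4% of the called genes were higher. Changes below are relative to the TMM scaling, and a call is made by that edgeR test unless another is named. Of 12 fat cell markers, Lep, Slc2a4, Cfd and Retn stayed below 1 CPM in every library, and 8 were tested, of which 1 was higher and 6 lower. The fat cell markers summed to between 892 and 910.2 CPM in baicalin and between 1862 and 2042 CPM in DMSO. Most of this came from Lpl (mean 490.8 CPM in baicalin, 1443 CPM in DMSO) and Fabp4 (297.9 and 429.7 CPM). Adipoq (0.136 and 1.66 CPM) and Cidec (0.522 and 5.28 CPM) were low, and Lipe was the 1 higher (89.2 and 59.0 CPM). These genes are named with their values known. In bulk RNA fewer cells of a type and less RNA per cell cannot be told apart. The part of this shift in marker levels in the values below was not tested. Of 8 fibroblast markers 2 were higher and 6 lower, and they summed to between 11670 and 12050 CPM in baicalin and between 14960 and 15540 CPM in DMSO. The 6 macrophage markers summed to between 4.92 and 6.17 CPM in baicalin and between 4.12 and 4.88 CPM in DMSO, and 1 of them was called higher. The 5 endothelial markers Pecam1, Cdh5, Kdr, Tek and Emcn and the macrophage markers Adgre1, Ptprc and Itgam stayed below 1 CPM in every library.

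Of the 10 genes, 6 were called higher in baicalin (Egln1, Egln3, Bnip3, Vhl, Hif1a and Egln2), 2 lower (Kdm3a and Ndrg1), and Hif1an and Epas1 were not called. Since 67.7% of all tested genes were called, 8 calls among 10 are close to the background. With library size alone 5 were higher and 3 lower. Baicalin and DMSO libraries lay fully apart for 7 of the 10 genes, as they did for 70.2% of all tested genes. The size of the change sets 3 genes apart: Egln1, Egln3 and Bnip3 rose by at least 2-fold, which 5.24% of the tested genes did, and none fell by as much, which 9.71% did. The other 7 stayed within 1.45-fold in either direction.

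**Figure D1:**
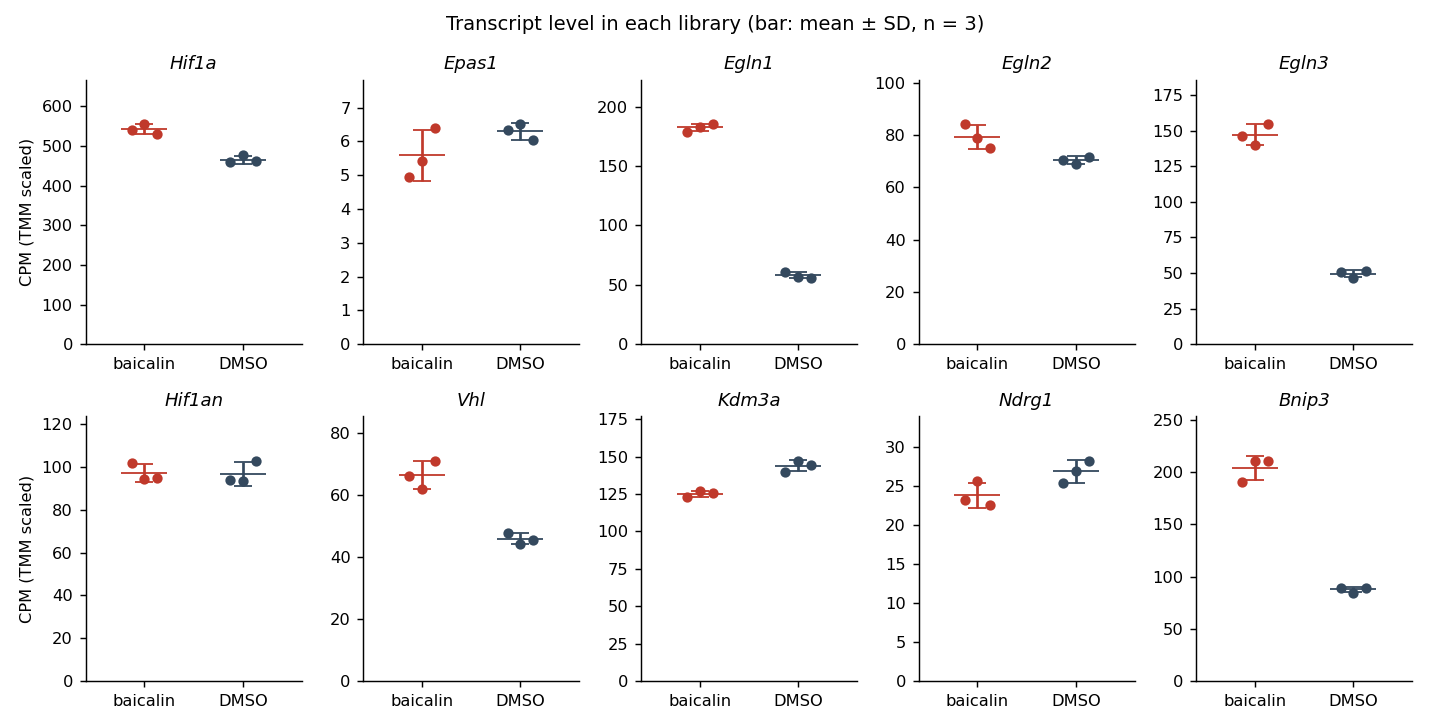
Transcript level of each of the 10 genes in CPM (TMM scaled, linear axis from 0), with 1 point per library and a bar for the mean ± SD of 3 libraries, baicalin in red and DMSO in dark blue. Points of the groups lie apart for 7 genes and interleave for Hif1an, Epas1 and Ndrg1.

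**Figure D2:**
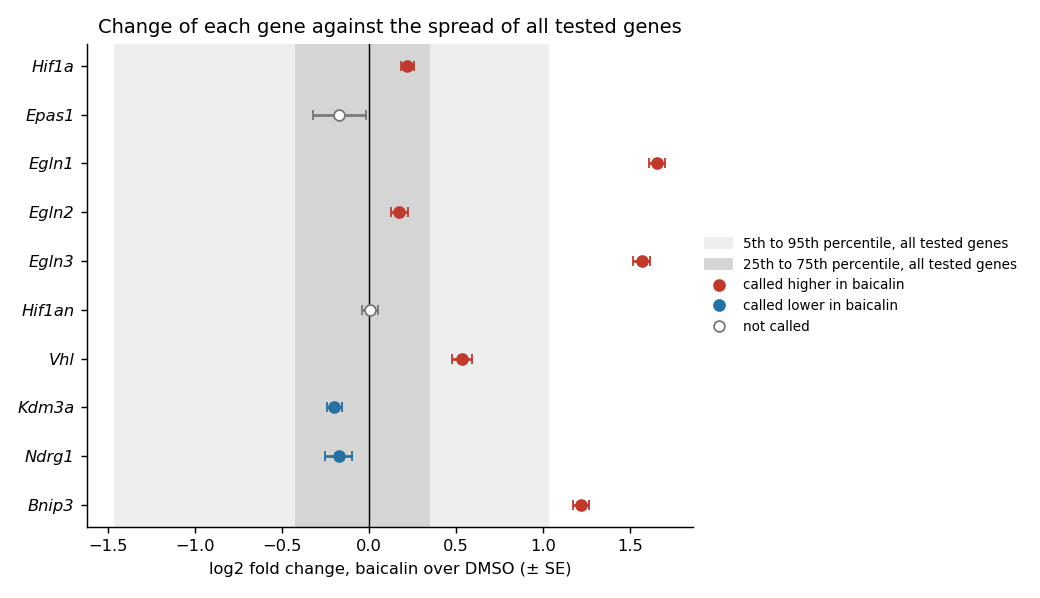
Log2 fold change of each gene, baicalin over DMSO, with its standard error (red, called higher; blue, called lower; open grey, not called), over shaded bands for the distribution of all 13728 tested genes. Egln1, Egln3 and Bnip3 lie above the 95th percentile of all genes (1.03), and 6 of the other genes lie between the 25th (-0.42) and the 75th (0.35), with Vhl (0.53) between the 75th and the 95th.

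Among the sensors themselves, the hydroxylases Egln1 and Egln3 rose and Egln2 barely moved. Egln1 (ENSMUSG00000031987, chromosome 8, 124908587 to 124949324, minus strand, mm10), which encodes PHD2, the main oxygen sensor of most cells, stood at 179, 183 and 186 CPM in baicalin against 60.7, 56.8 and 56.0 CPM in DMSO. Libraries of a group lay close together and the groups far apart, with a 3.15-fold rise (log2 fold change 1.66, SE 0.05, adjusted p = 1.91e-35). Only 1.96% of the tested genes had a higher log2 fold change. Egln3 (ENSMUSG00000035105, chromosome 12, 54178981 to 54203860, minus strand), which encodes PHD3, had 146, 139.9 and 155 CPM in baicalin and 50.8, 46.6 and 51.2 CPM in DMSO, without overlap. Its rise was 2.96-fold (log2 fold change 1.57, SE 0.05, adjusted p = 7.06e-33).

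Egln2 (ENSMUSG00000058709, chromosome 7, 27158658 to 27166802, minus strand), which encodes PHD1, is the family member that is not known as a HIF target. It was at 84.25, 78.76 and 75.02 CPM in baicalin and 70.5, 68.8 and 71.7 CPM in DMSO. The groups did not overlap, but the gap between the lowest baicalin and the highest DMSO library was small, and the rise was 1.13-fold (log2 fold change 0.17, SE 0.05, adjusted p = 0.00219). That call was lost with library size alone (0.046), and the sign turned in a trend-corrected fit, in which lowess trends with gene length and GC content were taken out of every library (-0.095, adjusted p = 0.0807).

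The balance between the 3 hydroxylase transcripts differed between the groups. Levels of different genes are compared here per length, in the authors' FPKM (fragments scaled to gene length and to a factor for each library). Set to 1 in DMSO replicate 1, that factor was 0.888, 0.956 and 0.924 in baicalin, where the total counts were 0.994, 1.03 and 1.01. In DMSO replicates 2 and 3 it was 0.95 and 0.993, beside totals of 0.945 and 0.9875. Relative to DMSO, baicalin FPKM were thus higher than total counts alone would give. The 3 genes together summed to 138, 133 and 139 FPKM in baicalin against 61.8, 58.3 and 60.8 FPKM in DMSO, which is 2.27 times as much. Egln2 made up 22.3%, 21.4% and 19.6% of the sum in baicalin and 41.2%, 42.5% and 42.4% in DMSO. It was the most abundant of the 3 in every DMSO library and the least abundant in every baicalin library. Egln1 made up 37.8% ± 0.9 in baicalin and 26.9% ± 0.964 in DMSO, and Egln3 41.1% ± 1.39 in baicalin and 31.1% ± 0.802 in DMSO (SD, n = 3 each).

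Ratios within a library do not depend on the scaling between libraries. The FPKM of Egln1 over that of Egln2 was 1.80 ± 0.136 in baicalin and 0.641 ± 0.0311 in DMSO, and that of Egln3 over Egln2 was 1.95 ± 0.187 in baicalin and 0.741 ± 0.0246 in DMSO (SD, n = 3 each). In both ratios every baicalin library lay above every DMSO library, and each reached the smallest p that 3 samples against 3 allow (two-sided exact permutation test, p = 0.1, adjusted p = 0.125 over 5 ratios). The ratio of Egln3 to Egln1 was 1.09 ± 0.0487 in baicalin and 1.16 ± 0.068 in DMSO, with overlapping groups (exact permutation p = 0.2, adjusted p = 0.2). With 3 libraries a group this test cannot pass 0.05 for any ratio.

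**Figure D3:**
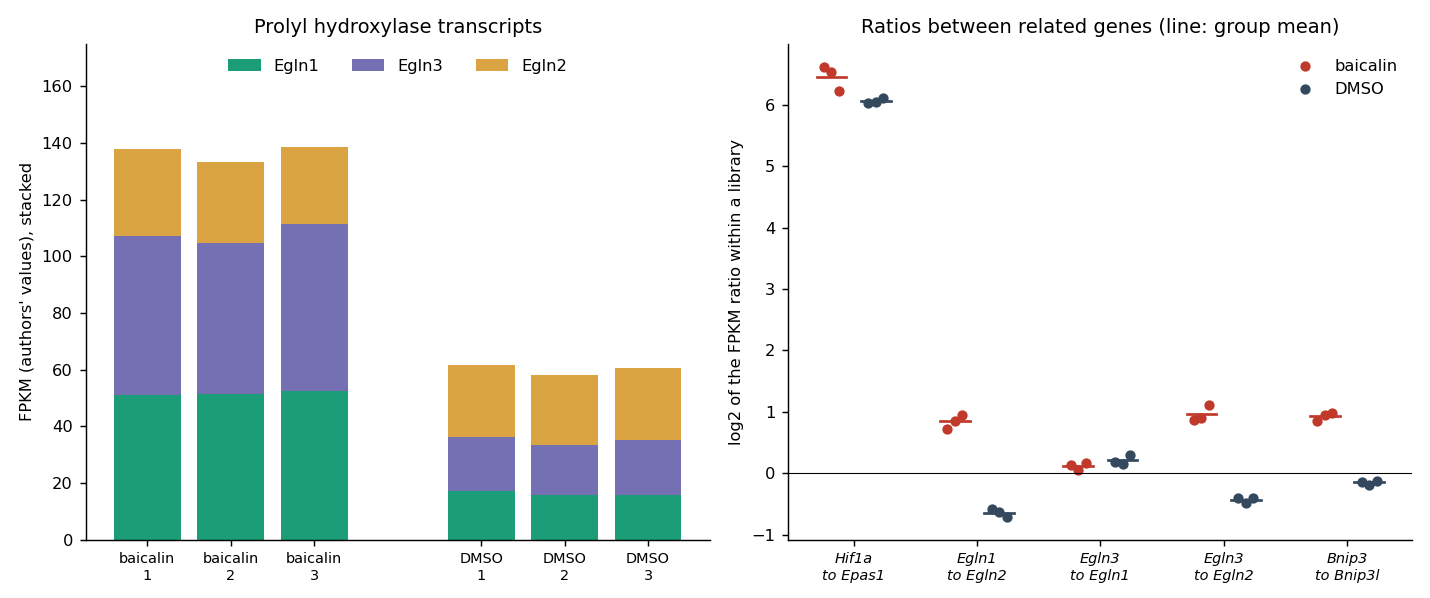
Left, FPKM of Egln1, Egln3 and Egln2 stacked for each library; right, log2 of the FPKM ratio between related genes within each library, with 1 point per library and a line at the group mean (baicalin red, DMSO dark blue). The stacks reach 133 to 139 FPKM in baicalin and 58.3 to 61.8 FPKM in DMSO, and the ratios to Egln2 lie above 0 in every baicalin library and below 0 in every DMSO library.

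The transcripts of the alpha subunits, whose proteins are the substrates of these enzymes, moved far less than those of Egln1 and Egln3. Hif1a (ENSMUSG00000021109, chromosome 12, 73901375 to 73947530, plus strand) had 540.4, 556 and 531 CPM in baicalin and 458, 477 and 461 CPM in DMSO. The groups did not overlap, and the rise was 1.17-fold (log2 fold change 0.22, SE 0.04, adjusted p = 8.51e-07). The transcript has a low GC content of 41.3%, and the trend-corrected fit gave a larger rise (0.54, 1.45-fold), whereas library size alone gave 0.09. The call held in all 18 alternatives. Exons of Gm15283, on the opposite strand, overlap those of Hif1a over 330 bases. Gm15283 had 148 reads in all libraries together, 0.279% of those of Hif1a. The strand setting of the counting is not known, so these reads do not bound the effect of the overlap.

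Epas1 (ENSMUSG00000024140, chromosome 17, 86753700 to 86833410, plus strand), typical of endothelial cells and also expressed in fat, was low. It had 82, 96 and 110 reads in baicalin and 117, 114 and 110 reads in DMSO, or 5.59 ± 0.75 CPM in baicalin and 6.30 ± 0.249 CPM in DMSO (SD, n = 3 each). The highest baicalin library lay within the DMSO range, and no change was called (edgeR, adjusted p = 0.324) at a log2 fold change of -0.17 with an SE of 0.15. Its standard error is about as large as its value, so that a change of this size was not detectable at this depth. Epas1 made up 1.13% ± 0.168 of the summed FPKM of the 2 alpha subunits in baicalin and 1.48% ± 0.0416 in DMSO. The FPKM of Hif1a was 98.6, 92.3 and 74.6 times that of Epas1 in baicalin and 65.1, 65.9 and 68.8 times in DMSO (exact permutation p = 0.1, adjusted p = 0.125). The 3 baicalin libraries spread more widely in this ratio than the DMSO libraries, as did their Epas1 reads.

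The other steps of alpha subunit control differed from each other. Hif1an (ENSMUSG00000036450, chromosome 19, 44562850 to 44576274, plus strand), the gene of FIH, was at 15.8, 14.5 and 14.6 FPKM in baicalin and 14.4, 14.2 and 15.7 FPKM in DMSO. The values interleave, and no change was called on the counts (log2 fold change 0.0045, adjusted p = 0.939, SE 0.05). Scaling by library size alone, which moves the median of all genes down, called it lower (-0.12, adjusted p = 0.0202). Vhl (ENSMUSG00000033933, chromosome 6, 113623959 to 113631633, plus strand), whose product recognises the hydroxylated alpha subunit, had 66.0, 62.0 and 71.0 CPM in baicalin and 47.7, 44.1 and 45.5 CPM in DMSO. Every baicalin library lay above every DMSO library, and the rise was 1.45-fold (log2 fold change 0.53, SE 0.06, adjusted p = 5.2e-12).

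The known HIF targets Bnip3, Kdm3a and Ndrg1 did not move together. Bnip3 (ENSMUSG00000078566, chromosome 7, 138890836 to 138909519, minus strand), a mitochondrial receptor that directs mitochondria to autophagy, stood at 190.2, 211 and 211 CPM in baicalin and 89.4, 84.7 and 88.7 CPM in DMSO. The groups lay far apart, and the rise was 2.33-fold (log2 fold change 1.22, SE 0.05, adjusted p = 4.76e-30). The annotation holds 6 other genes whose transcripts match that of Bnip3 at 93.4% to 99.7% identity over at least 347 bases, with between 0 and 37 reads each in all libraries together, against 10511 reads of Bnip3 in baicalin and 4750 in DMSO. The sources used here do not say how reads that match several places were counted. The reads counted for these copies therefore do not bound the uncertainty in the level of Bnip3.

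The close relative Bnip3l, also a mitophagy receptor and HIF target, was at 183 ± 3.03 CPM in baicalin and 166 ± 1.91 CPM in DMSO (SD, n = 3 each, log2 fold change 0.14, adjusted p = 0.00156), a call lost with library size alone. In FPKM, Bnip3 was 1.80, 1.93 and 1.97 times as abundant as Bnip3l in baicalin and 0.908, 0.878 and 0.918 times as abundant in DMSO. The order of the pair was thus opposite in the 2 groups (exact permutation p = 0.1, adjusted p = 0.125).

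Kdm3a (ENSMUSG00000053470, chromosome 6, 71588972 to 71632990, minus strand), a histone H3 lysine 9 demethylase that itself uses oxygen, had 123, 127 and 126 CPM in baicalin and 139.9, 147 and 145 CPM in DMSO. Every baicalin library lay below every DMSO library, by a small amount (log2 fold change -0.20, SE 0.04, adjusted p = 4.85e-05). The trend-corrected fit left no such difference (-0.0033, adjusted p = 0.948), and library size alone gave a larger one (-0.33). Ndrg1 (ENSMUSG00000005125, chromosome 15, 66929318 to 66969640, minus strand), a stress-responsive gene often used as a marker of hypoxia, had 23.1, 25.6 and 22.5 CPM in baicalin and 25.4, 26.9 and 28.2 CPM in DMSO. One baicalin library, replicate 2, lay above the lowest DMSO library, so the groups overlap. The difference passed the threshold narrowly (log2 fold change -0.17, SE 0.08, adjusted p = 0.0452) and its call was lost without baicalin replicate 1 (adjusted p = 0.131), without baicalin replicate 3 (0.216), without DMSO replicate 2 (0.0903), without DMSO replicate 3 (0.19), and with DESeq2 (0.206). Library size alone gave a larger fall (-0.30).

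The trend with GC content was a property of all genes. Of 5 equal bins, the one with the lowest GC content (30.8% to 43.6% of the longest transcript) had a median log2 fold change of -0.34, and the one with the highest (55.3% to 78.3%) had 0.19. By exon length the bin of the shortest genes had a median of 0.16 and that of the longest -0.23. Among the 10 genes Egln2 has the highest GC content (62.2%), and Hif1a (41.3%), Bnip3 (41.6%) and Kdm3a (45.5%) the lowest. Removing both trends left Egln1 at 1.42, Egln3 at 1.38, Bnip3 at 1.41 and Vhl at 0.39, all still called higher.

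**Figure D4:**
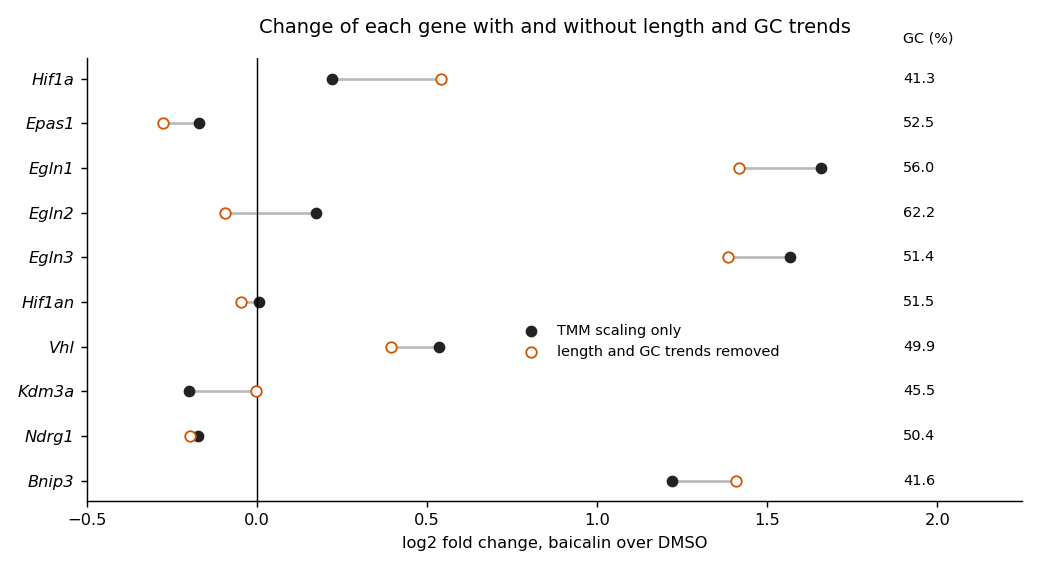
Log2 fold change of each gene, baicalin over DMSO, with TMM scaling only (filled) and in the trend-corrected fit (open), and the GC content of the longest annotated transcript at the right. Egln1, Egln3, Bnip3 and Vhl stay well above 0, Hif1a moves up to 0.54, Kdm3a moves to 0 and Egln2 crosses it.

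Ordered by mean FPKM, the levels in baicalin ran from Hif1a (93.6 ± 1.98) and Bnip3 (91.6 ± 4.89) through Egln3 (56.2 ± 2.92), Egln1 (51.7 ± 0.748), Egln2 (28.9 ± 1.81), Vhl (22.5 ± 1.57), Kdm3a (15.5 ± 0.163) and Hif1an (15.0 ± 0.72) to Ndrg1 (3.66 ± 0.237) and Epas1 (1.07 ± 0.141). In DMSO they ran from Hif1a (79.5 ± 1.72) through Bnip3 (39.0 ± 1.18), Egln2 (25.3 ± 0.51), Egln3 (18.8 ± 0.972), Kdm3a (17.6 ± 0.434), Egln1 (16.2 ± 0.745), Vhl (15.4 ± 0.631) and Hif1an (14.8 ± 0.807) to Ndrg1 (4.10 ± 0.21) and Epas1 (1.195 ± 0.0485), all SD with n = 3. Neighbours whose libraries overlap are Hif1a with Bnip3 and Kdm3a with Hif1an in baicalin, and Egln3 with Kdm3a, Egln1 with Vhl and Vhl with Hif1an in DMSO. Both ends of the order were the same in the groups. The changes lay in the middle, where Egln1 and Egln3 passed Egln2, and Egln1 and Vhl passed Kdm3a.

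The start regions of the hydroxylase genes, Bnip3 and Kdm3a are shown because HIF binds a short core, ACGTG or GCGTG, so that a reader can see which of the moving and the nearly steady genes carry it. RefSeq promoters (GRCm38.p6, the assembly of mm10, 250 bases before to 50 after a start) were found for 8 of the 10 genes, all but Epas1 and Ndrg1. The sequences run 5′ to 3′ on the strand of the gene, with matches to ACGTG or GCGTG on either strand in capitals (CACGT and CACGC are the same motifs read on the other strand). GCGTG is also the core bound by the aryl hydrocarbon receptor, and where CACGTG, the E-box, occurs, ACGTG matches on both strands and counts as 2. They lie at chr8:124949205-124949504 (Egln1), chr12:54203825-54204124 (Egln3), chr7:27166753-27167052 (Egln2), chr7:138909457-138909756 (Bnip3) and chr6:71632868-71633167 (Kdm3a), all on the minus strand.
Egln1: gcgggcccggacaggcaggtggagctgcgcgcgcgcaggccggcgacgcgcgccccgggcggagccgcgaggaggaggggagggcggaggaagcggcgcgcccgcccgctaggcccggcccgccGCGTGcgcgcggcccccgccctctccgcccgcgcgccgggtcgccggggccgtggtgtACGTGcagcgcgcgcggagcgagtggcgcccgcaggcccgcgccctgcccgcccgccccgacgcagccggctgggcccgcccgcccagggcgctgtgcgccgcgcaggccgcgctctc
Egln3: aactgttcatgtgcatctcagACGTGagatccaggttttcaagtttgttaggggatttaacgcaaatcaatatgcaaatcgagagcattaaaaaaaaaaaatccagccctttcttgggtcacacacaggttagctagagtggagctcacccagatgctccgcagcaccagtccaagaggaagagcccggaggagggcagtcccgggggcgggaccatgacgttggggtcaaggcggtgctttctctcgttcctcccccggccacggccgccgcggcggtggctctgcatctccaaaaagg
Egln2: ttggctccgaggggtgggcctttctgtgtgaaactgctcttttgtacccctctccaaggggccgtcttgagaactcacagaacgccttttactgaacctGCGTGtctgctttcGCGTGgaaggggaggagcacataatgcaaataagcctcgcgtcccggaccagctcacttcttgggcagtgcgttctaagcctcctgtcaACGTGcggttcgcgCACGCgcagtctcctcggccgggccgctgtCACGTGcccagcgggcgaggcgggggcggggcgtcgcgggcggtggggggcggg
Bnip3: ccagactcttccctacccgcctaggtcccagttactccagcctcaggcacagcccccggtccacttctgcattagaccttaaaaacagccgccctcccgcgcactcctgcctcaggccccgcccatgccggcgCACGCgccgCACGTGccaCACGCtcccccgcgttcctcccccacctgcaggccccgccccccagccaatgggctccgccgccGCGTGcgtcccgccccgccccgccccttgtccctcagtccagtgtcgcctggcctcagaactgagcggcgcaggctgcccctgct
Kdm3a: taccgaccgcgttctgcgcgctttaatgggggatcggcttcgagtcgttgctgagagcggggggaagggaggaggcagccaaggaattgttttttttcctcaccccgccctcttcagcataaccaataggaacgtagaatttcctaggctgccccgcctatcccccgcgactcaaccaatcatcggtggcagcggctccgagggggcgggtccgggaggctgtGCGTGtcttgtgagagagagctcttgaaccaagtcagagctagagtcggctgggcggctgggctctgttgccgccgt

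Bnip3 had 5 matches in its 300 bases, a number reached by 1.7% of the 32841 promoters of that length, and Egln2 had 6, reached by 0.7%. Egln1 had 2, starting 126 and 68 bases before the start site (reached by 20.7%), Egln3 1 at 229 bases before it, and Kdm3a 1 at 27 bases before it, where 43.8% of promoters have at least 1. Hif1a had 3, and Hif1an and Vhl had none in this window. The start site of the Hif1a promoter lies 6492 bases from the annotated gene start, against at most 73 for the first promoter of the others. Egln2, with the most matches, changed 1.13-fold, Bnip3 with 5 changed 2.33-fold, and Egln1 with 2 changed 3.15-fold. Egln3 and Kdm3a, with 1 each, changed 2.96-fold and 0.87-fold. Whether the matches bear on the changes was not tested. The promoters of Egln2 and Kdm3a are the first of several that RefSeq lists. A match is only a run of letters, not evidence of binding.

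Other genes of the pathway were grouped in 8 lists. These lists were chosen with earlier results of these data known, so their counts are descriptive and not independent support. Among HIF targets outside glycolysis, 21 of 24 tested genes were higher and 3 lower. With library size alone 19 were higher, and in the trend-corrected fit 20. The median log2 fold change of these targets with TMM scaling was 0.88, against 33.6% higher and a median of 0.0014 over all tested genes. Hilpda, an inhibitor of lipolysis, stood at 123 ± 4.39 CPM in baicalin and 18.1 ± 1.27 CPM in DMSO, and the oxidoreductase gene Ero1l at 1392 ± 105 CPM in baicalin and 257 ± 5.87 CPM in DMSO (SD, n = 3 each). Fam162a (log2 fold change 1.62), Higd1a (1.47), which acts on respiratory supercomplexes, the adenylate kinase gene Ak4 (1.25) and the collagen prolyl hydroxylase gene P4ha2 (1.22) rose as well. Vegfa, the angiogenic growth factor, had 149.5, 183 and 179 CPM in baicalin and 92.6, 89.1 and 94.3 CPM in DMSO, without overlap (log2 fold change 0.89, SE 0.06, adjusted p = 2.52e-09). The 3 that fell, named after their values were seen, were Lox (-1.18), which cross-links collagen, Zfp395 (-0.85) and Ppp1r3c (-0.41), a glycogen-targeting subunit. Of 15 glycolytic HIF targets 14 were higher and none lower (median 1.21). Ldha (1.69) and Pkm (1.54) led them, and the lactate exporter Slc16a3, named after its value was seen, was not called. In 10 of these 15 genes the rise was at least 2-fold, which 5.24% of all tested genes reached.

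No gene in the list of partners and coactivators of the alpha subunits was called higher. That list also holds Hif3a, the gene of a further alpha subunit, and Cited2. Of its 6 tested genes 4 were lower (median -0.38). Over all tested genes 34.1% were lower and 67.7% were called in either direction. Arnt, the obligate partner, had 169, 163 and 168 CPM in baicalin and 233, 230.4 and 231 CPM in DMSO. The groups lay well apart (log2 fold change -0.47, SE 0.04, adjusted p = 1.7e-15), and the call held in all 18 alternatives, with values between -0.60 and -0.38. The coactivator genes Crebbp (-0.52) and Ep300 (-0.28, and -0.12 in the trend-corrected fit) fell too, and so did Hif3a (-0.90), which was low, at 1.28 ± 0.16 CPM in baicalin and 2.39 ± 0.496 CPM in DMSO, and whose call was lost without DMSO replicate 1. The log2 fold changes of Arnt2 (-0.22, adjusted p = 0.0953) and of Cited2 (0.04, adjusted p = 0.531), a competitor for the coactivators, were not called, and Cited4 was too low to test. The trend-corrected fit turned the sign of Cited2 and called it lower (-0.21), and library size alone called Arnt2 lower (-0.35), so that each of these gave 5 of 6 lower.

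For the VHL ligase, Elob (0.32), Cul2 (0.28) and the RING subunit gene Rbx1 (0.15) rose and Eloc (-0.09, adjusted p = 0.24) was not called, which is 3 of 4 higher against 33.6% of all tested genes. The trend-corrected fit left Elob at 0.024, not called, gave more for Cul2 (0.59) and Rbx1 (0.37), and called Eloc higher (0.29), whereas library size alone called Eloc lower (-0.22). The groups of Rbx1 overlapped, and its call held in 13 of 18 alternatives. That call was lost with library size alone (0.02), on log2(FPKM + 0.1) and on log2(FPKM + 1) without a filter. Leaving out baicalin replicate 1 or DMSO replicate 1 also removed it. Exons of Elob also overlap those of Srrm2 on the opposite strand over 4 bases, and the strand setting of the counting is not known. Among other regulators of the alpha subunits 8 of 10 were higher and 1 lower (median 0.32), against 33.6% higher and 34.1% lower over all tested genes. With library size alone 6 were higher, and in the trend-corrected fit 7. They included Usp20 (1.0013), a deubiquitinase of HIF-1 alpha, Siah2 (0.84), a ligase that degrades prolyl hydroxylases, and Rack1 (0.62), a scaffold of oxygen-independent degradation. Hsp90ab1 (0.37), Apba3 (0.42), whose product restrains FIH, and Os9 (0.27) rose as well, but the trend-corrected fit gave less for Hsp90ab1 (0.20) and Apba3 (0.15) and left Os9 at 0.0002, not called. The 1 that fell, Siah1a (-0.16, adjusted p = 0.0496), is named after its value was seen; its groups overlapped and its call was lost in 13 of 18 alternatives.

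**Figure D5:**
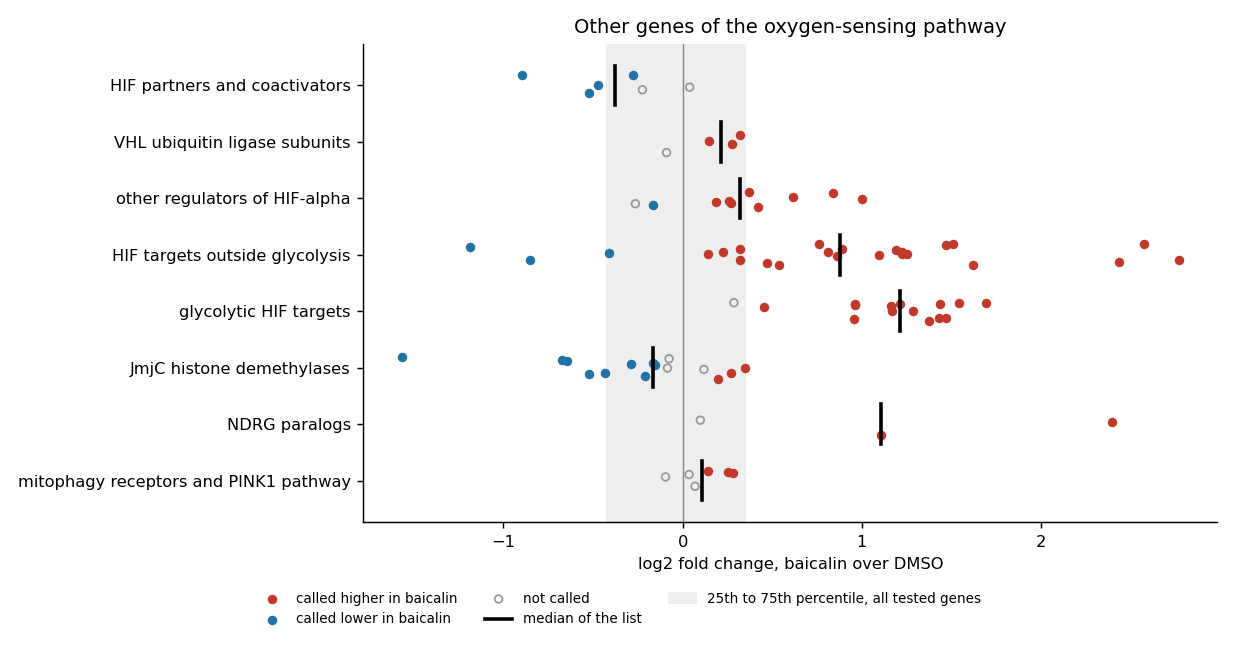
Log2 fold change, baicalin over DMSO, of each tested gene in 8 lists of the oxygen-sensing pathway (red, called higher; blue, called lower; open grey, not called), with a black line at each list's median and a grey band from the 25th to the 75th percentile of all tested genes. The medians of the HIF target lists (0.88 and 1.21) and of the 3 NDRG paralogs (1.11) lie to the right of the band and that of the partners and coactivators (-0.38) near its left edge. The lists were chosen with earlier results of these data known.

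Relatives of Kdm3a moved in both directions, and 2 of the 3 relatives of Ndrg1 rose, against 33.6% higher over all tested genes. Of 15 tested histone demethylases of the JmjC class, which all need oxygen, 9 were lower and 3 higher (median -0.16). That makes 12 called of 15, close to the 67.7% of all tested genes, of which 34.1% were lower. Kdm3b, the closest relative of Kdm3a, was at -0.16 (adjusted p = 0.00358), close to the -0.20 of Kdm3a, and its call was also lost in the trend-corrected fit and in the 3 fits on FPKM. Those that fell included Kdm7a (-1.56), Jmjd1c (-0.67), Kdm6a (-0.64), Kdm5a (-0.52) and Kdm4c (-0.43). Kdm4a (0.35) rose, as did Kdm4b (0.27) and Kdm5c (0.20), which are both picked out here with their values known. In the trend-corrected fit 5 were lower and 3 higher, and these were partly different genes. There Kdm5b, called lower with TMM scaling (-0.15), was called higher (0.16), and Kdm6b, not called before (-0.08), was called lower (-0.20), both picked out here with their values known. Jmjd1c (-0.17), Kdm6a (-0.31), Kdm4c (-0.23) and Kdm7a (-1.03) stayed lower by smaller amounts. Kdm5a (-0.08) and Kdm4b (0.09) were not called in that fit, and Kdm5c was not called with library size alone (0.07). In the NDRG family Ndrg2, at 12.04 ± 0.662 CPM in baicalin and 2.28 ± 0.748 CPM in DMSO, rose (log2 fold change 2.39), as did Ndrg4 (1.11), at 46.2 ± 2.83 CPM in baicalin and 21.5 ± 2.87 CPM in DMSO (SD, n = 3 each). Ndrg3 (0.10, adjusted p = 0.0571) was not called, though 8 of 18 alternatives called it higher. Ndrg1, the member known as a hypoxia marker, was thus the only NDRG gene with a negative log2 fold change with TMM scaling; with library size alone Ndrg3 stood at -0.03.

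For 6 other genes of mitophagy the log2 fold changes lay between -0.10 and 0.28. Of these, 3 were higher and none lower (median 0.11), against 33.6% higher and 34.1% lower over all tested genes, and the other 3 were not called. Bnip3l, described above, is among the 3 higher and is also counted among the HIF targets outside glycolysis. Fkbp8 (0.28) and Phb2 (0.25) rose by small amounts, of which Phb2 stood at 0.06 in the trend-corrected fit and was not called. Fundc1 (-0.10, adjusted p = 0.104), Bcl2l13 (0.07, adjusted p = 0.186) and the kinase gene Pink1 (0.04, adjusted p = 0.552) were not called, but the trend-corrected fit called Fundc1 and Bcl2l13 higher (0.26 and 0.15) and Pink1 lower (-0.23), and library size alone called Fundc1 lower (-0.22). Exons of Bcl2l13 overlap those of Bid on the opposite strand over 628 bases, and exons of Fkbp8 overlap those of Kxd1 on the opposite strand over 224 bases.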

How the data were processed

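RNA was measured in 6 libraries, 3 with baicalin and 3 with DMSO, grouped by the treatment label. The deposited read counts per gene come, per the series design text, from featureCounts 1.5.0-p3, and the build mm10 is named in the submitters' processing notes. The deposited FPKM values were derived by the authors from these counts and gene length, again per the design text. The sources used here do not give the aligner, annotation or strand setting. Gene positions, exon overlaps, lengths and GC content came from GENCODE M21, on the assembly of mm10, promoters from RefSeq, and near-identical transcripts of the 10 genes from blastn 2.17.0; copies of other genes were not searched for.

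Genes kept by filterByExpr were fitted with edgeR 4.0.16 under R 4.3.3 (TMM factors, robust quasi-likelihood, a treatment term and no covariate), on the whole table, with Benjamini-Hochberg adjustment; a call is an adjusted p under 0.05. The standard error is the log2 fold change divided by the square root of its F statistic. FPKM carried ratios between genes within a library, with exact permutation tests. Sampling noise did not account for the differences between replicates (chi-square per degree of freedom 2.83 to 4.35), so none was merged. Alternatives were DESeq2 1.42.0, limma-voom (limma 3.58.1), RLE factors, library size alone, other low-count filters, a replicate block, removal of lowess trends on length and GC (span 0.3), log2(FPKM + 1) and log2(FPKM + 0.1) in limma, and leaving out each library.

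The members and lists were chosen with earlier results of these data known. One gene of the lists is not reported here and was left out of their counts. From the lists, every gene of those with at most 7 genes could be named, and otherwise the 6 called genes with the largest change and a mean of at least 5 CPM, plus Vegfa, Bnip3l, Arnt and Kdm3b. Tables were made in Python 3.11.15 with pandas 2.3.3, numpy 2.4.6 and scipy 1.17.1, and figures with matplotlib 3.10.9.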

Additional observations from a re-analysis of the deposited data

How the results depend on the processing

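Across 18 alternatives Egln1, Egln3, Bnip3, Vhl and Hif1a were always called higher, with log2 fold changes from 1.42 to 1.70, 1.38 to 1.62, 1.09 to 1.41, 0.39 to 0.60 and 0.09 to 0.54. Epas1 was never called (-0.30 to -0.08). The number of the 10 genes called lower was 1 instead of 2 with DESeq2, without a low-count filter, in the trend-corrected fit (with and without the block) and in the 3 fits on FPKM, and between 1 and 2 on leaving out a library. Ndrg1 lost its call with DESeq2 (-0.16), without a low-count filter (-0.14), on log2(FPKM + 1) with and without a filter (-0.13 each) and on log2(FPKM + 0.1) (-0.16), and ranged from -0.22 to -0.12 on leaving out a library. Kdm3a lost its call in the trend-corrected fit (-0.0033, and -0.0034 with the block), and Egln2 stood at 0.046 with library size alone and at -0.095 in the trend-corrected fit (-0.096 with the block). Hif1an, at 0.0045, changed sign with RLE factors (-0.0003), library size alone (-0.12), the stricter filter (-0.0079) and the trend-corrected fit (-0.0471, and -0.0465 with the block), and ranged from -0.019 to 0.056 on leaving out a library. The cause was not tested. Whether the replicate numbers pair the samples could not be settled. Correlations of deviations were 0.0348, 0.0367 and -0.0024 for the same number, and from -0.0575 to 0.0256 for different numbers. The replicate block gave 6 higher and 2 lower genes of the 10, and 4660 higher and 4731 lower genes in all. The ratios between related genes kept their direction on leaving out each library, and with 3 samples a group none could pass 0.05. Ratios of read counts and the replicate block give the same mean difference by construction, so they do not test the direction. The trend-corrected fit was not applied to the ratios. Depth limits genes with few reads, such as Epas1 and Hif3a.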
